A study of Mus musculus with 2 samples.

Results

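Mir451a, Mir144, Mir486 and Mir3107 are the microRNA genes best known from red blood cells, and their reads were followed here in heart tissue. The genes were taken by their GENCODE M21 names, and all 4 were found among the 2202 microRNA genes counted. The tissue came from male B6CASTF1/J mice, first-generation hybrids between C57BL/6J laboratory mice and the wild-derived CAST strain, at an age of 10 days. No treatment is named, and 2 libraries of short RNA, with a labelled upper size limit of 30 (given without a unit), form a single group of biological replicates 1 and 2. The labels give the libraries separate sample identifiers under a common donor identifier, so the spread between them may in part be technical. The labels do not say whether the hearts were flushed of blood.

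Red cells lose their nucleus as they mature and keep a small set of microRNAs. Mir144 and Mir451a are cut from a common primary transcript that the erythroid transcription factor GATA1 switches on, and mice without the cluster form fewer mature red cells and tolerate oxidative stress poorly. miR-451a is known for an unusual route of processing: its short hairpin is cleaved by the Argonaute protein AGO2 and not by Dicer, the enzyme that cuts most microRNA hairpins. Mir486 lies in the gene of the red cell membrane skeleton protein ankyrin 1, Ank1, and is also made in striated muscle. Mir3107, also named Mir486b, lies on the other strand of the Mir486 locus.

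Mir144 (ENSMUSG00000065401.1) and Mir451a (ENSMUSG00000070065.1) lie side by side on the plus strand of chromosome 11 in mm10. Mir144 spans 78073005 to 78073070 and Mir451a 78073170 to 78073241, with 99 bases between them. No gene other than Mir451b (ENSMUSG00000104813.1), which has the same span on the minus strand, overlaps this pair in the annotation. The hairpins are shown because their shapes differ and because the strand of Mir451a decides how its reads can be counted. They are RefSeq sequences of build GRCm38.p6, written 5′ to 3′ with the mature microRNAs in capitals, and their coordinates are those of the GENCODE genes.
Mir451a hairpin: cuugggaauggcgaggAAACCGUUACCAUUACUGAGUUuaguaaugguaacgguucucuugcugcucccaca
Mir144 hairpin: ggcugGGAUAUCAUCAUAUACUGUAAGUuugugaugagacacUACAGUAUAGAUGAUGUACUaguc

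The mature miR-451a takes bases 17 to 38 of its 72-base hairpin. A fold predicted with RNAfold placed the end loop at bases 35 to 38, so the mature form holds the whole loop. The table lists only this 1 mature form for Mir451a. Mir144, with a hairpin of 66 bases, gives the common picture: miR-144-5p takes bases 6 to 28 and miR-144-3p bases 43 to 62, on either side of a predicted loop at bases 31 to 36. The deposited counts are per gene, so the 2 arms of Mir144 cannot be told apart in them.

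**Figure D1:**
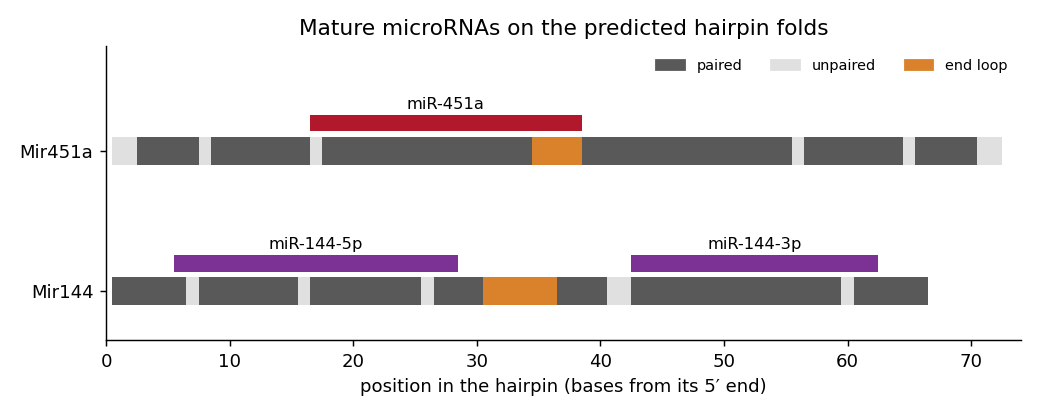
Position of the mature microRNAs on the hairpins of Mir451a (above) and Mir144 (below), in bases from the 5′ end of each hairpin, with the predicted paired bases, unpaired bases and end loop marked by shade. The bar of miR-451a covers the loop at bases 35 to 38, whereas the bars of miR-144-5p and miR-144-3p stand on either side of the loop at bases 31 to 36.

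The seed, bases 2 to 8 of a mature microRNA, is the part that mainly pairs with target RNAs. The seeds are in capitals below, for the mature forms of the cluster and for that of the gene opposite Mir451a.
miR-451a: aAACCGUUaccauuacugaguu
miR-144-3p: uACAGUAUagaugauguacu
miR-144-5p: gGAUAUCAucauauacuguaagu
miR-451b: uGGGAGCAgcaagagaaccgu

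No 2 of these share a seed, and none of the 4 seeds occurs in any other of the 1679 mature microRNAs of the RefSeq table, which is not complete. With only bases 2 to 7 compared, miR-144-3p has 1 partner in the table, miR-101a-3p, which differs at base 8. It is shown beside miR-144-3p with bases 2 to 7 in capitals.
miR-144-3p: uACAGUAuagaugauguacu
miR-101a-3p: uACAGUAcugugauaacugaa

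Since Mir451b has the same span as Mir451a on the other strand, its hairpin is by definition the reverse complement of that of Mir451a (72 of 72 bases). Neither Mir451a nor Mir144 shares a stretch of 20 bases with another hairpin of the table on its own strand. Of the 4 chosen genes and Mir451b, 3 were matched in the table (Mir451a, Mir144 and Mir451b), and Mir486 and Mir3107 were not.

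Mir486 (ENSMUSG00000070084.3) spans 23142555 to 23142682 on the plus strand of chromosome 8, inside Ank1 and on the same strand, 7815 bases before the annotated end of that gene. None of the annotated Ank1 exons touches it, so it is intronic. Mir3107 (ENSMUSG00000106471.1) spans 23142573 to 23142662 on the minus strand, and all of its 90 bases lie within the 128 bases of Mir486. The long antisense gene Gm15816 also covers the locus, with none of its exons on it.

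Mir451a was by far the most abundant of the 4 genes. It had 35953 counts in replicate 1 and 52029 in replicate 2, or 9591 and 8251 CPM (counts scaled to 1000000 over the microRNA genes of a library). Its mean was 8921 ± 948 CPM, and all SDs here are over the 2 replicates (n = 2). It stood at rank 20 of 2202 genes in replicate 1 and rank 21 in replicate 2. A small RNA read spans a mature microRNA from end to end, so counts of different genes were set side by side with no scaling by length.

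Mir144, its cluster partner, had 1186 counts in replicate 1 and 2856 in replicate 2. These equal 316 and 453 CPM, with a mean of 385 ± 96.5 CPM and ranks of 112 and 88. Mir486 had 1156 counts in replicate 1 and 907 in replicate 2, or 308 and 144 CPM, with a mean of 226 ± 116 CPM and ranks of 113 and 144. Mir144 and Mir486 were thus level in replicate 1 and apart in replicate 2.

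Mir3107 was the least abundant, with 46 counts in replicate 1 and 53 in replicate 2. Its mean was 10.3 ± 2.73 CPM, from 12.3 and 8.40 CPM. A gene was called detected from 10 counts upward in each library, which all 4 of these genes and 340 genes in all reached. The order Mir451a, Mir144, Mir486, Mir3107 was the same in both libraries. The values of Mir144 and Mir486 do not overlap, but their means lie closer than their SDs together, so this pair cannot be ordered beyond the spread between the libraries. The steps above and below the pair are larger than that spread.

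**Figure D2:**
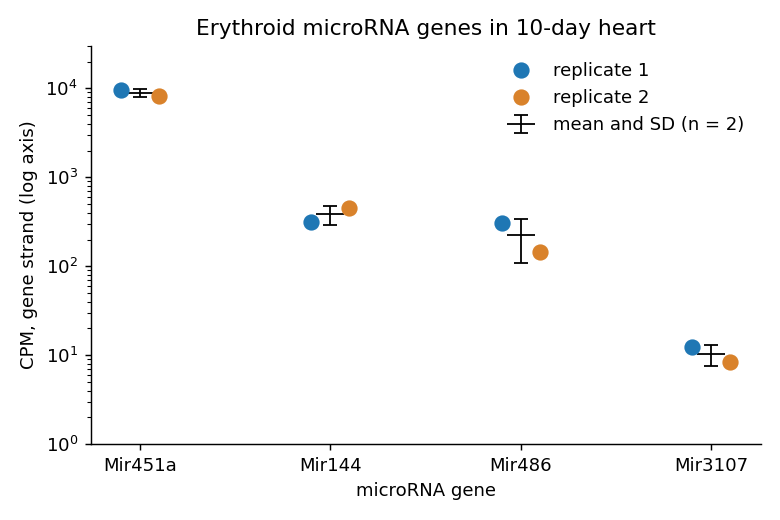
CPM on the gene strand (log axis) of the 4 erythroid microRNA genes, with 1 point per library and the mean with its SD (n = 2). Mir451a sits at 9591 and 8251 CPM, far above the others, and the SD bars of Mir144 and Mir486 overlap.

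Together the 4 genes accounted for 38341 counts in replicate 1, a share of 1.02% with an exact Clopper-Pearson 95% interval of 1.01% to 1.03%. The share in replicate 2 was 0.886%, from 55845 counts, with an interval of 0.878% to 0.893%. Mir451a alone made up 93.8% of these counts in replicate 1 and 93.2% in replicate 2. The summed level is therefore in effect that of Mir451a. In bulk tissue, fewer cells of a type and less RNA per cell cannot be told apart.

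The depth behind these values was 3748432 gene-strand counts in replicate 1 and 6305782 in replicate 2. A count of 0 allows a level of up to 0.8003 CPM in replicate 1 and 0.476 CPM in replicate 2 (3 counts), and such limits and intervals cover counting error only. Reads with several mapping positions, in no gene's count, were 36.8% and 48.1% of all reads. Their part in the levels of the 4 genes was not tested, so the levels, ranks and order given here hold for the counted reads only. A low count does not show that a microRNA is scarce. The heart markers Mir499 (3678 and 7542 CPM), Mir208a (3795 and 1362 CPM) and Mir208b (794 and 3444 CPM), which lie in myosin genes, were present in both libraries. The other cardiac muscle genes listed were far lower. Mir1a-2 had 43.2 and 99.6 CPM, Mir1a-1 had 3.47 and 3.01 CPM and Mir133a-1 had 2.67 and 4.28 CPM. Mir133a-2 was not detected, at 0.534 and 0.634 CPM.

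**Figure D3:**
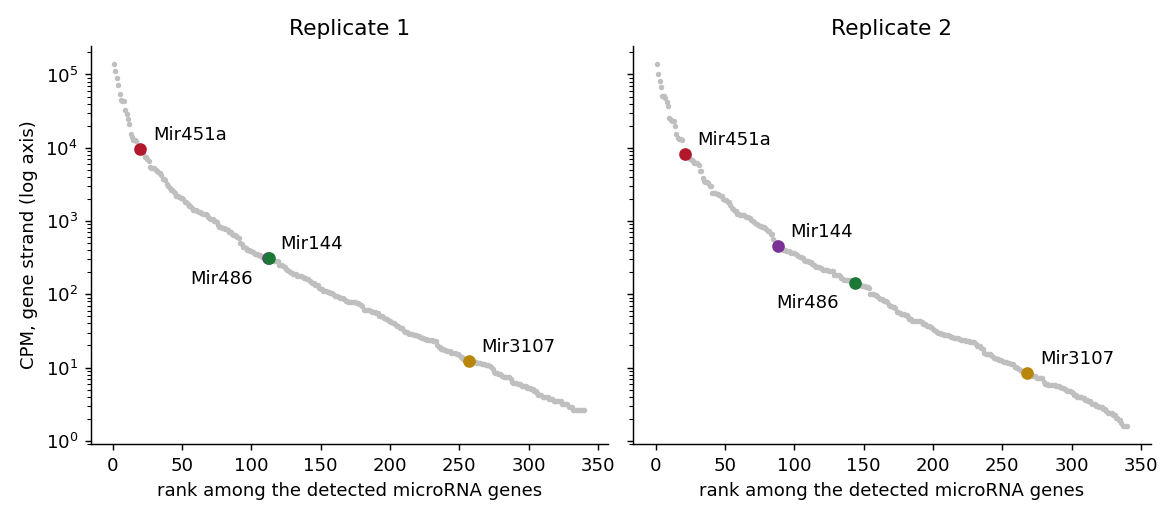
CPM on the gene strand (log axis) of the 340 detected genes by their rank in each library, replicate 1 on the left and replicate 2 on the right. Mir451a stands near the top of both curves, and Mir144 and Mir486 lie on top of each other in replicate 1 but apart in replicate 2.

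Within the chromosome 11 cluster, Mir451a exceeded Mir144 by 30.3 to 1 in replicate 1 and by 18.2 to 1 in replicate 2. The mean log2 ratio of these counts was 4.55 ± 0.52. The share of Mir144 in the counts of the pair was 3.19% in replicate 1, with an exact 95% interval of 3.02% to 3.38%. For replicate 2 it was 5.20%, with an interval of 5.02% to 5.39%. The intervals do not overlap, so the proportion of the pair differed between the libraries by more than counting error, and this value does not depend on how the libraries are scaled. Among the reads counted, Mir451a exceeded Mir486, from the other locus, by 31.1 to 1 in replicate 1 and by 57.4 to 1 in replicate 2. Reads of Mir486 with several mapping positions, if any, are missing from this ratio.

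Strand set the counts of both loci apart. At the Mir451a locus each library held reads on the plus strand only: Mir451b had 0 of 35953 reads in replicate 1, which allows a share of up to 0.00834%, and 0 of 52029 in replicate 2, which allows up to 0.00577%. The deposited both-strand column, in which reads that fit more than 1 gene are set aside as ambiguous, lists Mir451a at 0 in both libraries. The gene-strand reads of Mir451a equal 3.62% and 2.98% of the reads set aside in that way. Mir144 has no gene on its other strand, had 0 opposite-strand reads and kept all of its 1186 and 2856 counts in the both-strand column.

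At the Ank1 locus reads fell on both strands. Mir3107, on the minus strand, received 3.83% of the reads of the pair in replicate 1, with an exact 95% interval of 2.82% to 5.07%. Its share in replicate 2 was 5.52%, with an interval of 4.16% to 7.16% that overlaps the first. Among the reads counted, Mir486 thus exceeded Mir3107 by 25.1 to 1 and 17.1 to 1, a mean log2 ratio of 4.37 ± 0.39. Reads with several mapping positions are in neither count. With no sequence of Mir486 or Mir3107 in the RefSeq table, it was not tested whether their mature forms are alike. The ratio is therefore not a measure of how much of each microRNA was made. All 1156 plus-strand reads of replicate 1, and 906 of 907 in replicate 2, fell where Mir486 and Mir3107 overlap.

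For genes that overlap no other counted gene on the other strand, reads on the opposite strand were 0.00221% of all their reads in replicate 1 and 0.00250% in replicate 2. The minus-strand share at the Ank1 locus lies far above that level in both libraries, and the Mir451a locus showed no such reads. That level comes from genes without a counted gene on the other strand. Whether reads of Mir486 could be placed on Mir3107 was not tested, so the share is not a measure of minus-strand microRNA. Among 19 overlapping pairs of counted genes on opposite strands with at least 100 reads in each library, 10 had no read on the minor gene in either library. Of the 19, 3 had a minor share above 1% in both libraries: Mir486 with Mir3107, Mir24-1 with Mir3074-1, and Mir338 with Mir3065, of which the last 2 pairs were chosen after their values were seen.

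**Figure D4:**
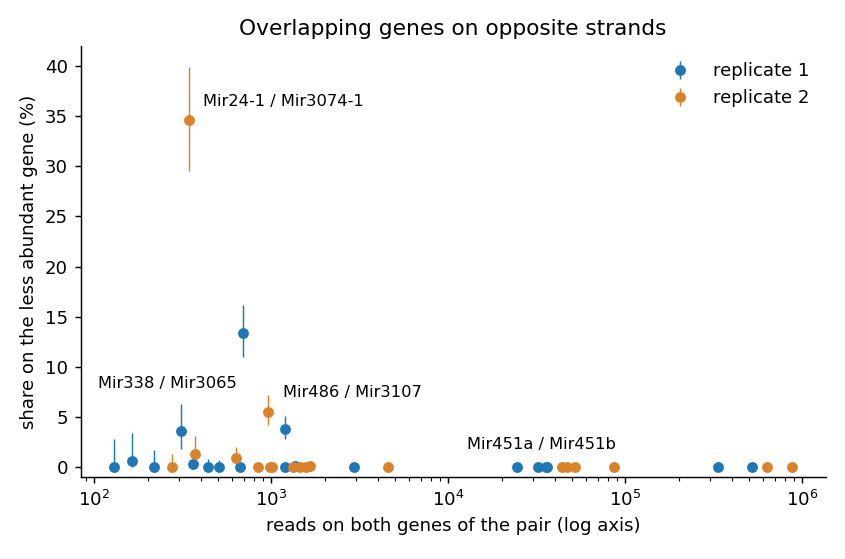
Share of reads on the less abundant gene of each overlapping pair on opposite strands (%, with exact 95% intervals) against the reads of the pair (log axis), for the 19 pairs with at least 100 reads in each library. Mir486 with Mir3107 stands at 3.83% in replicate 1 and 5.52% in replicate 2, and Mir451a with Mir451b at 0 in both.

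The 4 genes did not differ between the libraries in 1 direction. The counts of each detected gene were set against the ratio of library sizes scaled by TMM (edgeR's trimmed mean of M-values) in an exact binomial test, two-sided, and p-values were adjusted by the Benjamini-Hochberg method across all 340 genes. This test compares 2 libraries of a single group with counting error alone, and 72.1% of the detected genes passed it at 0.05, 37.9% as higher and 34.1% as lower in replicate 1. Of the 4 genes 3 passed, 2 as higher and 1 as lower, which is close to this background. On simulated counts, in which most of the genes tested were given a difference, 20.3% of the 148 unchanged genes passed as well. That share holds for the simulated setting only. The TMM scaling moved all log2 ratios of replicate 1 over replicate 2 by -0.14 against the ratio of the CPM values.

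Mir486 was higher in replicate 1, with a log2 ratio of 0.96 (exact 95% interval 0.83 to 1.08, adjusted p = 2.33e-50, exact binomial test), or 1.94-fold. Mir144 was lower in replicate 1, with a log2 ratio of -0.66 (-0.76 to -0.56, adjusted p = 1.42e-41, exact binomial test). These opposite directions held under each of the scalings tried (TMM over all genes or over the detected genes, DESeq2 size factors and total counts). Mir3107 had a log2 ratio of 0.41 (-0.20 to 1.00) and did not pass (adjusted p = 0.227, exact binomial test), and its wide interval overlaps that of Mir486.

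The difference of Mir451a between the libraries depended on the scaling. Its log2 ratio was 0.07 (0.06 to 0.09), a 1.05-fold difference that passed the test at 35953 and 52029 counts (adjusted p = 1.25e-13, exact binomial test). With total counts as the scaling the log2 ratio was 0.22 (adjusted p = 5.82e-105, exact binomial test). With DESeq2 size factors the value was -0.0029 and did not pass (adjusted p = 0.811, exact binomial test), so no direction can be given for it. After TMM scaling, 5.59% of the detected genes had a smaller absolute log2 ratio than Mir451a. For Mir144 that share was 58.2% and for Mir486 78.8%, against a median absolute log2 ratio of 0.54 and an SD of 0.92 over the detected genes. The differences of Mir144 and Mir486 thus lie within the range that detected genes commonly showed between these replicates.

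**Figure D5:**
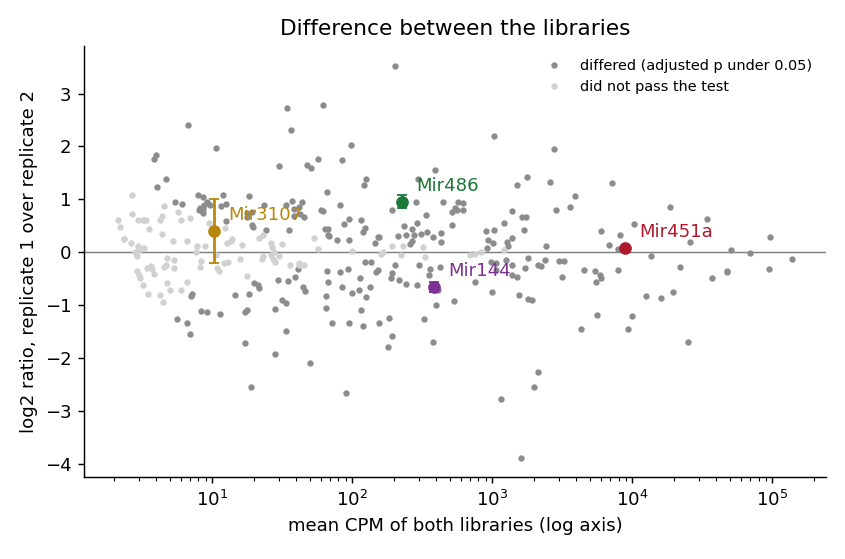
Log2 ratio of replicate 1 over replicate 2 after TMM scaling against mean CPM (log axis) for the 340 detected genes, with the exact 95% intervals of the 4 erythroid genes. Mir486 at 0.96 and Mir144 at -0.66 lie on opposite sides of 0, and Mir451a stands at 0.07.

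Other microRNAs linked to blood showed no common direction either. A list of 14 microRNA genes that are abundant in red cells but are made in many other cells too, such as Mir191, Mir93 and Mir16-1, was detected in full. In replicate 1, 5 of them were higher and 8 lower, and 1 did not pass, with a median log2 ratio of -0.23, against 129 higher, 116 lower and a median of 0.05 over all detected genes. With total counts as the scaling the median of the list was -0.08. Its summed share of the counts was 2.51% in replicate 1, against 2.45% in replicate 2. Its most abundant gene, Mir191, had 8511 and 7386 CPM, Mir93 had 5015 and 5775 CPM, and Mir16-1 had 1423 and 2410 CPM.

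Of 12 microRNA genes reported to act in red cell formation, such as Mir221 and Mir222, which restrain the receptor KIT, 5 were higher in replicate 1, 6 were lower and 1 did not pass. Their median log2 ratio was -0.19, or -0.04 with total counts as the scaling, and 72.1% of all detected genes passed, 37.9% as higher and 34.1% as lower. The most abundant were Mir23a with 32734 and 41593 CPM, Mir30a with 9597 and 15380 CPM and Mir155 with 1430 and 1191 CPM. These genes are active in vessel, muscle or immune cells as well, so their level is not a measure of red cells.

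White blood cell markers were lower in sum than Mir451a. The 6 counted genes of that list summed to 2947 CPM in replicate 1, close to the 3039 CPM of replicate 2, and Mir142b was at 0 in both. Mir155 led the list, Mir146 had 988 and 846 CPM and Mir150 had 392 and 672 CPM. Mir142 had 117 and 249 CPM and Mir223 had 20.5 and 79.9 CPM. Mir150, Mir142 and Mir223 were thus lower in replicate 1 despite the near-equal sum, which is not a measure of white cell content. Of the 5 detected genes 2 were higher and 3 lower in replicate 1, with a median log2 ratio of -0.92, beside 37.9% higher and 34.1% lower over all detected genes. Mir122, the hepatocyte microRNA that also circulates in plasma, was at 57.9 and 77.7 CPM. Their part in the values of the 4 erythroid genes was not tested.

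The endothelial list, a marker of the vessels that hold the blood, summed to 89739 CPM in replicate 1 and 100994 CPM in replicate 2. Mir126a made up nearly all of it, with 88956 and 100563 CPM, beside Mir221 with 744 and 388 CPM and Mir222 with 38.4 and 43.5 CPM. Of its 3 detected genes 1 was higher and 2 lower in replicate 1, with a median log2 ratio of -0.32, or -0.18 with total counts as the scaling. Of the 6 detected cardiac muscle genes 1 was higher and 3 lower, with a median of -0.98. The counts of both lists, like that of the erythroid genes (2 higher, 1 lower, median 0.24, or 0.38 with total counts as the scaling), stand beside the 72.1% of detected genes that passed.

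The detected genes nearest to Mir451a in log2(CPM + 1) over both libraries were Mir191, Mirlet7e and Mir151, at distances of 0.24, 0.25 and 0.38. Mirlet7e had 9531 and 6917 CPM, and Mir151 had 7404 and 8506 CPM. Nearest to Mir144 were Mir25 (332 and 493 CPM), Mir467e (322 and 392 CPM) and Mir130b (281 and 510 CPM), and nearest to Mir486 were Mir433 (252 and 131 CPM), Mir501 (286 and 185 CPM) and Mir350 (248 and 181 CPM). The distance covers 2 libraries only and is a likeness of level.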

How the data were processed

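Raw read counts per microRNA gene were deposited as 1 table per library, with no normalization and no pooling of replicates. The build was mm10, and the annotation used here was GENCODE M21, in which all 2202 counted genes were found. For aligner, counter and trimming, none is given in the sources used here. The count columns (both strands, gene strand, opposite strand) were identified from the values, and the gene strand was used. The 4 entries that name no gene (for replicates 1 and 2: several mapping positions 36.8% and 48.1%, unmapped 16.0% and 11.5%, outside the genes 4.78% and 3.43%) were used neither for library sizes nor for tests.

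TMM factors came from edgeR 4.0.16 over all 2202 genes. Tests covered genes that had 10 or more counts in each library, log2 ratios used a prior of 0.5 counts, and alternatives included size factors of DESeq2 1.42.0. With 1 group, a quasi-likelihood contrast has no groups to compare. Folds were predicted with RNAfold (ViennaRNA 2.7.2). Named genes were the 4 members, counted genes within 5000 bases, the 3 nearest in level to 3 of the members, and the 3 most abundant of each list. The remaining cardiac muscle and leukocyte genes were named after their values were seen. The genes and lists were chosen with earlier results of these data known. Of 49 list entries 48 were matched, 2 through a synonym.

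The simulated counts of replicate 1 over replicate 2 held counting error and set differences only, with 348 genes tested. The test was passed by 96.2% of the 105 genes set to a log2 difference of 1. It was passed by 82.1% of the 95 genes set to 0.5 and by 20.3% of the 148 unchanged genes.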

Additional observations from a re-analysis of the deposited data

How the results depend on the processing

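The call and sign of Mir144 and Mir486, and the missed call of Mir3107, held under DESeq2 size factors, total counts, no filter on low counts and, chosen after seeing the data, TMM factors from the detected genes only; Mir486 and Mir3107 could not be tested in the both-strand column. Mir451a passed under these settings except DESeq2 size factors, where its log2 ratio was -0.0029 (adjusted p = 0.811, exact binomial test; adjusted p over the other settings 5.82e-105 to 9.91e-06). The genes that differed numbered 220 to 252 over the alternatives, against 245 of 340 (72.1%). The settings did not test the same number of genes. With no filter 252 of 733 passed (34.4%), and in the both-strand column 220 of 316 (69.6%). Higher against lower calls in replicate 1 were 129 and 116 with TMM, 146 and 97 with total counts and 113 and 124 with DESeq2 size factors. Since a scaling moves every log2 ratio alike, the list medians moved with it. With total counts and with DESeq2 size factors they were 0.38 and 0.16 for the erythroid genes (0.24 with TMM), -0.08 and -0.30 for the red cell-abundant list, -0.04 and -0.26 for the red cell formation list and -0.18 and -0.40 for the endothelial list. The leukocyte medians (-0.78 and -0.996) and the cardiac muscle medians (-0.84 and -1.06) moved by less than 1.5 times, and no list median changed sign.

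With all reads of the table as denominator, the mean levels were 3562 per 1000000 reads for Mir451a, 151 for Mir144, 92.0 for Mir486 and 4.16 for Mir3107. In the both-strand column Mir451a and Mir3107 were listed at 0, Mir486 had 0.110 CPM (rank 654) and Mir144 528 CPM, since that column drops reads of overlapping genes and so has a smaller total. Leaving out either replicate returns the values of the other library, so it is no separate check. The values were 8251 to 9591 CPM for Mir451a, 316 to 453 CPM for Mir144, 144 to 308 CPM for Mir486 and 8.40 to 12.3 CPM for Mir3107. No paired analysis was possible because both libraries belong to 1 group.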

Other observations

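The strand shares of the counted reads at other overlapping microRNA loci covered a wide range. Reads with several mapping positions are in none of these counts, and their part in the shares was not tested. Mir24-1 and Mir3074-1 were the least one-sided of the 19 pairs with at least 100 reads in each library: Mir3074-1 had 13.4% of the reads in replicate 1, with an exact 95% interval of 10.95% to 16.2%, and 34.6% in replicate 2, with an interval of 29.6% to 39.9%. At the Mir338 locus Mir3065 took 3.58% (1.80% to 6.32%) and 1.36% (0.441% to 3.13%). At the far end, Mir126b had 3 and 1 counts beside 333445 and 634127 of Mir126a, and the leukocyte gene Mir142 had 437 and 1571 counts with none on Mir142b. These pairs were named after their values were seen.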
